A study of Arabidopsis thaliana with 3 samples.

Results

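Genes that carried a BDH1-FLAG peak at each of their 2 ends are described here. They were chosen from the 14444 nuclear protein-coding genes of at least 2000 bp in the RefSeq gene table of assembly TAIR10.1. A gene was taken when each of the 2 deposited peak lists held a summit (the highest point of a peak) within 500 bp of one gene end and a summit of another peak within 500 bp of the other end. This gave 972 genes, or 6.73% of the long protein-coding genes and part of the 27444 nuclear protein-coding genes in all. Over the same long genes, 54.2% had a peak at one or both ends in both lists. The choice rests on the peak positions themselves, so the presence of both peaks is a description and no test was made of it.

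BDH1 belongs to the BCL-DOMAIN HOMOLOG proteins, which the series title ties to the stability of the SWI/SNF complex. Chromatin was taken from inflorescences of soil-grown Arabidopsis thaliana in long days, cross-linked with formaldehyde and precipitated with an anti-FLAG antibody. The 2 samples used here were replicates of the genotype bdh1-1 BDH1-FLAG, in which a FLAG-tagged BDH1 was expressed in a bdh1 mutant. The promoter of the transgene and the number of independent lines are not given in the labels, nor whether the replicates came from separate plantings, so the spread between them may be technical. The wild-type sample, precipitated with the same antibody, was not analysed here, so no background level of an untagged plant stands beside the values. The lists held 16653 and 16413 peaks, and the read depth behind them is unknown.

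SWI/SNF complexes use the energy of ATP to move or evict nucleosomes. In plants they act at the starts of genes, where the nucleosome next to the start decides how easily the transcription machinery can load. The Arabidopsis ATPase BRM has also been mapped to the ends of genes, where such complexes have been connected with antisense transcription. The genome of Arabidopsis is compact, and the end of one gene often lies close to the start or end of the next. A peak near a gene end may therefore belong to the gene, to its neighbour or to the space between them. Strand is not part of the gene table, and which end of a gene is its start was therefore not known. The end with the lower coordinate is called left and the other right.

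Most of the 972 genes had one peak within the gene and the other beyond it. The summits lay inside the gene at one end and outside it at the other in 81.1% of the genes in replicate 1 and 81.9% in replicate 2 (mean 81.5% ± 0.582, SD, n = 2 lists). Both summits lay inside the gene in 8.08% ± 0.218 and both outside in 10.4% ± 0.364 (SD, n = 2 lists). Taken gene by gene, 723 had the inside summit at the same end in both lists, 65 had both summits outside in both lists, and 49 had both inside in both lists. The remaining 135 genes changed from one arrangement to another between the lists. The label of separate peaks at both ends therefore held for the intervals, while 49 of the 972 genes (5.04%, exact 95% interval 3.75% to 6.61%) held both summits within their own borders in both replicates.

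The positions of the summits fell into 2 groups on either side of the gene end, as the plot of summit positions shows. With positions counted as positive inside the gene, inside summits had medians of 242 bp (replicate 1) and 245 bp (replicate 2). Outside summits had medians of -304 bp (replicate 1) and -303.5 bp (replicate 2). Few summits sat on the end itself, since 124 of 1944 in replicate 1 and 119 of 1944 in replicate 2 were within 100 bp of it. No gene passed the rule when the window was narrowed to 100 bp, and 3 genes passed at 150 bp. For comparison, 5989 long genes had a peak at one end in both lists and none at the other end in either list. At the peak end of these one-ended genes the summit was inside the gene in 85.1% ± 0.307 (SD, n = 2 lists), at a median of 225 bp in both lists. In the genes with peaks at both ends 48.8% ± 0.0727 (SD, n = 2 lists) of the end summits were inside.

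**Figure D1:**
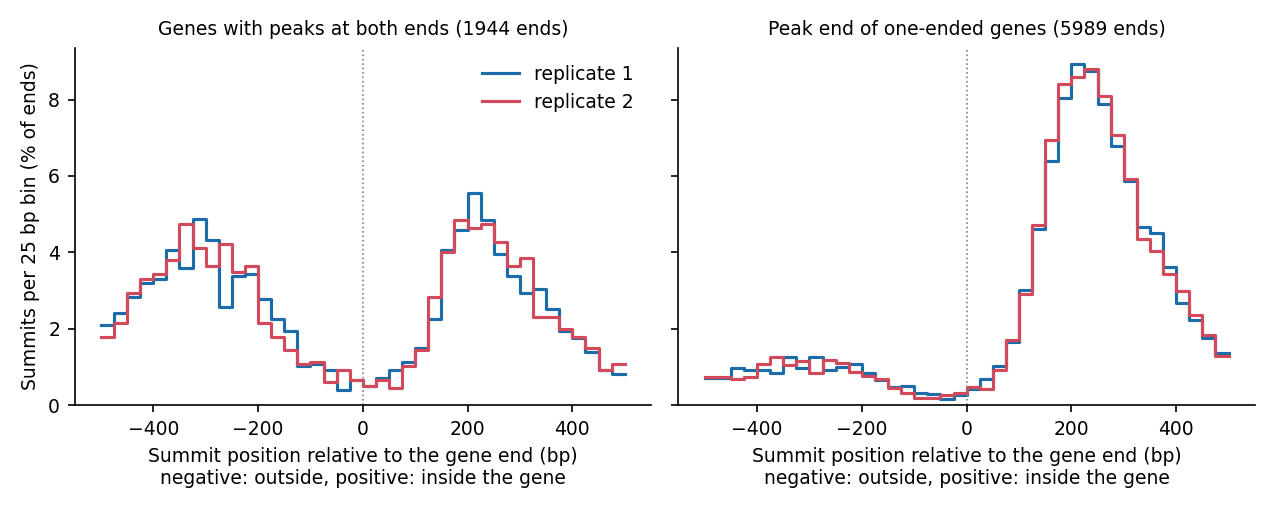
Position of end summits relative to the gene end in bp (x axis) against the percentage of ends per 25 bp bin (y axis), one line per replicate, for the 972 genes with peaks at both ends and for the peak end of 5989 one-ended genes. Genes with peaks at both ends show a group of summits on each side of the end (medians 242 and -304 bp in replicate 1), and one-ended genes have 85.1% of their summits inside.

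The outside summits lay mostly within the neighbouring gene. Another protein-coding gene held 822 of the 996 outside summits of replicate 1 and 825 of the 994 of replicate 2. These summits were a median of 215 bp and 220 bp from the nearest border of the neighbour. Summits inside their own genes had medians of 242 and 245 bp from the gene end. The measures are unlike, since the first takes the nearer border of a neighbour of any length. The 500 bp window also bears on both. A further 144 summits in replicate 1 and 147 in replicate 2 lay between annotated genes, at a lower fold enrichment (medians 2.09 and 2.01) than summits in a neighbour (2.37 and 2.41). Non-coding genes or pseudogenes held 30 and 22. The fold enrichment is the authors' value for each peak and is compared only within a list.

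Neighbouring genes were close. A border of another protein-coding gene lay within 500 bp of 66.8% of the ends of the 972 genes (1298 of 1944, exact 95% interval 64.6% to 68.9%), at a median distance of 188.5 bp. Over all long genes the share was 46.9% and the median 578.5 bp. One-ended genes had such a border near 44.8% of their peak ends and near 59.7% of their bare ends, and genes with no end peak in either list had it near 34.9% of their ends. Long genes with a neighbouring border near both ends carried peaks at both ends in 12.1% of cases (413 of 3402), those with one near a single end in 6.99% (472 of 6749), and those with none in 2.03% (87 of 4293). The 87 genes make up 8.95% of the described genes, whereas 29.7% of all long genes lie this far from their neighbours. These shares are descriptions, because the position of a peak near a gene end and the position of a neighbour near that end are not independent. The interval given for the ends also takes both ends of a gene, and facing ends of neighbouring genes, as independent.

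A peak at the other end was found in a smaller share of the genes with a peak at one end than of the genes without, in both lists. Of the long genes with a peak at one end, 27.8% in replicate 1 and 28.6% in replicate 2 had a peak at the other (mean 28.2% ± 0.541, SD, n = 2 lists, averaged over both ends). Of those without a peak at one end, 39.2% and 40.2% had a peak at the other (39.7% ± 0.714, SD, n = 2 lists). The order was the same in both lists at every length. Among genes of 2000 to 2500 bp the means were 28.7% and 35.8%, and among those of 4000 to 6000 bp they were 24.8% and 42.3%. It was also the same in each class of neighbours, with means of 17.2% and 27.7% where no protein-coding border lay near either end and of 35.9% and 54.6% where one lay near both. In all these cases the gap was larger than the spread between the lists, and no test across genes was made.

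**Figure D2:**
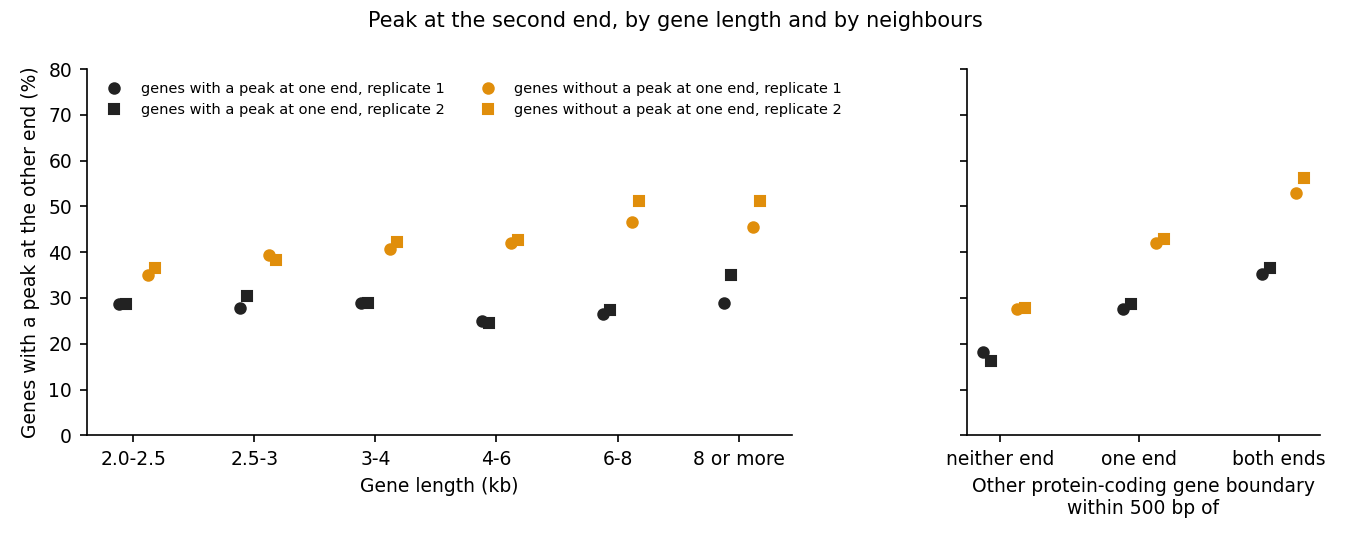
Percentage of long genes with a peak at the other end (y axis, % of genes), for genes with a peak at one end (black) and without one (orange), by gene length in kb (left) and by neighbouring protein-coding borders (right). Circles are replicate 1 and squares replicate 2, and the black points lie under the orange ones in every class, with overall means of 28.2% and 39.7%.

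The share of genes with peaks at both ends varied little with gene length. Their median length was 2974 bp, with quartiles of 2450 and 3840 bp, and the median of all long genes was 2964 bp. The share ran from 5.83% among genes of 4000 to 6000 bp (exact 95% interval 4.92% to 6.85%) to 8.01% among those of 8000 bp or more (23 of 287, exact 95% interval 5.15% to 11.8%). By chromosome it ran from 5.15% on chromosome 2 (exact 95% interval 4.26% to 6.17%) to 7.74% on chromosome 3 (6.78% to 8.79%). The intervals by length overlapped one another, and those of chromosomes 2 and 3 did not. These chromosomes were set side by side because their shares were the lowest and the highest. The intervals take genes as independent although some shared a peak, and no difference by length or chromosome was tested. A symbol other than the locus number was given for 47.4% of the 972 genes and 47.7% of all long genes.

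The end peaks were somewhat higher and wider than the typical peak of their list, a difference that the way they were chosen favours. They came from genes with end peaks in both lists, and the pair with the highest summed fold enrichment was taken. Their median fold enrichment was 2.36 in replicate 1 and 2.37 in replicate 2, against 2.25 and 2.23 over all peaks. Their median width was 473 and 521 bp, against 452 and 466 bp. They did not stand above the peaks of one-ended genes, whose medians were 2.38 and 2.37. In both lists 13 gaps between the end peaks of a gene were under 500 bp, and the median gap was 2510 bp in replicate 1 and 2448.5 bp in replicate 2. A further summit lay between the end peaks in 147 genes of replicate 1 and 118 of replicate 2, and in 70 genes (7.20%, exact 95% interval 5.66% to 9.01%) in both.

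Part of the genes with peaks at both ends were found in a single list. Of the 1415 genes with peaks at both ends in replicate 1 (9.8% of the long genes), 68.7% were among the 972. Of the 1488 such genes in replicate 2 (10.3%), 65.3% were. When a gene was found in a single list, the other list usually lacked a peak at just one end, in 399 of 443 cases from replicate 1 and 462 of 516 from replicate 2. Among the 972 genes, the chosen peaks overlapped between the lists at both ends in 908, and the median distance between the summits of the lists was 57 bp. In the other 64 genes the chosen peaks did not overlap between the lists at one or both ends. Some peaks served neighbouring genes, so 203 genes in replicate 1 and 202 in replicate 2 shared a peak with another of the 972.

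Within a gene the ends differed modestly in height. The median absolute log2 ratio of fold enrichment between the ends was 0.26 (replicate 1) and 0.25 (replicate 2), and 3 genes reached 1 in both lists. The same end was higher in both lists in 724 genes (74.5%, exact 95% interval 71.6% to 77.2%), the left end in 373 and the right end in 351. Where the log2 ratio reached 0.5 in at least one list, the same end was higher in 262 of 286 genes. Across the 972 genes, which are not independent and share peaks in part, the ratios of the replicates had a Pearson correlation of 0.70 and a Spearman correlation of 0.68. Among the 723 genes with a steady inside and outside summit, the inside one was higher in both lists in 300 and the outside one in 238. Their median fold enrichments were 2.41 ± 0.00839 inside and 2.34 ± 0.00909 outside (SD, n = 2 lists), so the peak in the neighbour or beyond was nearly as high as the peak in the gene.

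**Figure D3:**
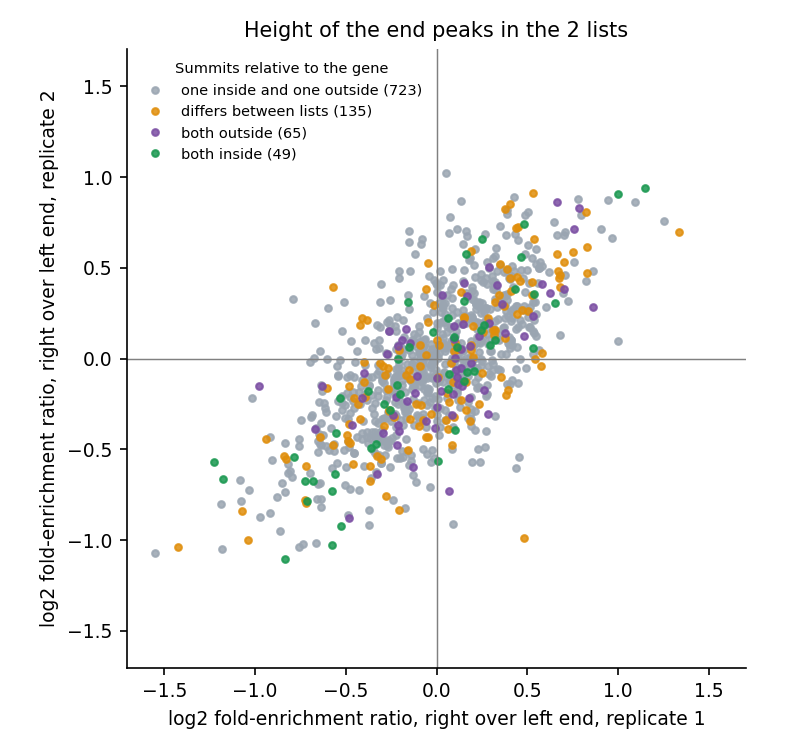
log2 ratio of the authors' fold enrichment, right over left end, in replicate 1 (x axis) against replicate 2 (y axis) for each of the 972 genes, coloured by whether the summits lay inside or outside the gene. The points follow the diagonal (Spearman 0.68), and genes of every arrangement are spread over both signs.

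The 10 genes whose lower peak ranked highest showed these arrangements at close range. IQD14 (AT2G43680), an IQ-domain protein of a calmodulin-binding family, stood first. Its left peak spanned chr2:18107674-18109647 in replicate 1 and chr2:18108303-18109470 in replicate 2 (TAIR10), with fold enrichments of 3.94 and 3.27 and summits 495 and 468 bp inside the gene. Its right peak, at chr2:18111979-18112338 and chr2:18111693-18112320, had fold enrichments of 3.44 and 3.29, and its summit lay 137 and 120 bp inside the neighbour AT2G43690. The ends were thus of like height, and which was higher changed between the lists.

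OBE1 (OBERON1), a PHD-finger protein needed for the shoot and root meristems, had fold enrichments of 3.31 and 3.18 at its left end and 3.41 and 3.36 at its right end in replicates 1 and 2. The right summit lay in AT3G07790 in both lists. ETT (ETTIN, also ARF3), an auxin response factor that patterns the gynoecium, had 3.37 and 3.18 at its left end and 3.25 and 2.84 at its right end. Its left summit lay in AT2G33855, whose border is 1 bp from that of ETT, and its right summit was 363 and 372 bp inside ETT. PAO2, a polyamine oxidase, had 2.86 and 3.01 on the left and 3.57 and 3.79 on the right, where the summit was in AT2G43030. ECIP1, named for its binding to the C-terminus of EIN2, had 3.11 and 2.86 on the left and 3.30 and 2.99 on the right, in AT4G24805. The higher end was the same in both lists in each of these 4 genes, the right end in OBE1, PAO2 and ECIP1 and the left end in ETT.

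The other 5 of the 10 had more varied arrangements. PBRP, a plant-specific relative of the general transcription factor TFIIB, had a left peak of 4.69 and 4.62 in a non-coding gene or pseudogene next to it and a right peak of 3.01 and 2.87 inside. The gene AT2G37240 had both summits outside in both lists, in AT2G37230 on the left and in ADK on the right, with fold enrichments from 3.14 to 3.58. The right summit of AT5G05670 fell within the gene in replicate 1 but within MOS7 in replicate 2. That of AT5G66560 lay between genes, 404 and 425 bp beyond the end. The gene AT5G65920 had its left summit in AT5G65910. Of these 10 genes, 8 had one summit inside and one outside in both lists, and none had both inside.

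**Figure D4:**
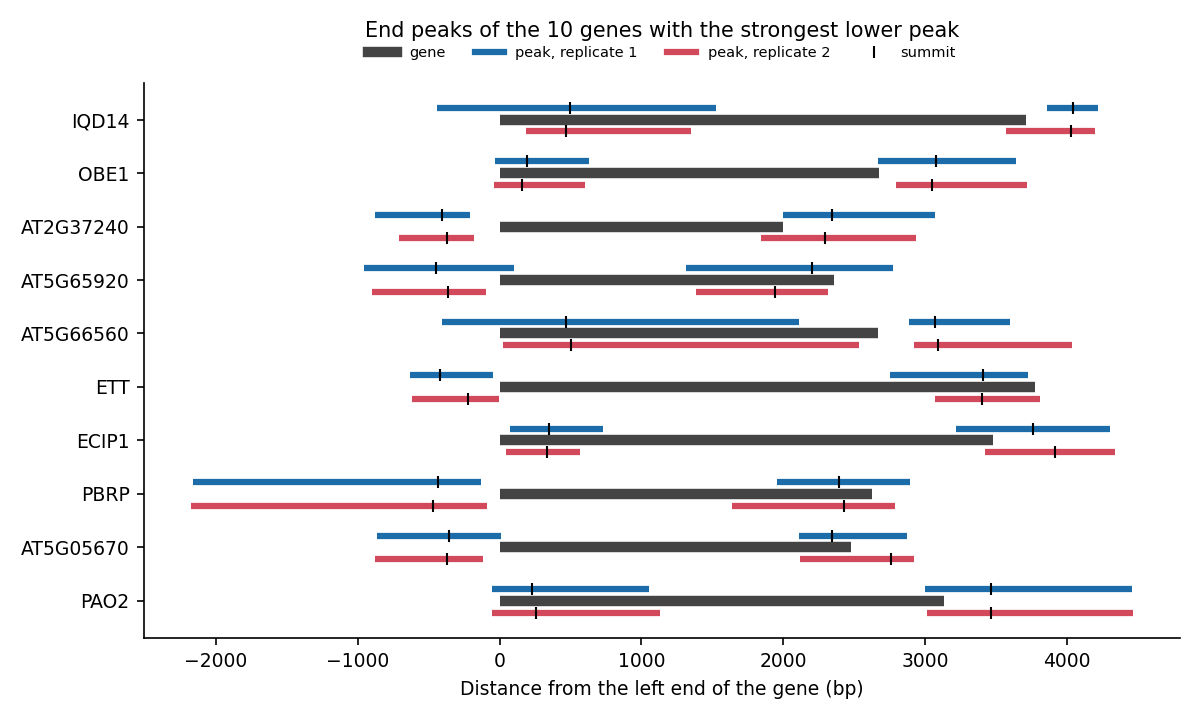
End peaks (blue, replicate 1; red, replicate 2) and summits (ticks) of the 10 genes with the highest-ranking lower peak, drawn to scale from the left end of each gene in bp. In 8 of the 10 genes one summit lies within the gene (dark bar) and the other past its end in both replicates.

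The 5 longest genes differed in peak height. MOR1, a microtubule-associated protein, was the longest at 14188 bp. At its left end, inside the gene, the fold enrichment was 1.70 in replicate 1 and 1.68 in replicate 2, and at its right end 2.28 and 2.39. The right summit was 230 and 204 bp inside UBQ7, a ubiquitin gene. EMB2016 (12086 bp) had 2.29 and 1.89 in the neighbour AT3G05675 and 2.43 and 2.02 inside at the other end. The gene AT4G38760 (11567 bp) had its left summit in ROC1, a cyclophilin gene, with 1.79 and 1.62, and its right summit inside, with 1.84 and 1.75. GCT (GRAND CENTRAL, 11102 bp), the MED13 subunit of the Mediator kinase module, had 1.66 and 1.98 inside at its left end and 2.88 and 3.43 in AT1G55335 at its right end. AT1G16800 (10985 bp) had 3.36 and 3.45 on the left and 2.39 and 2.52 on the right. Its left summit lay inside the gene and also in the overlapping AT1G16790 in both lists. The right peaks of AT1G16800 did not overlap between the lists. Their summit lay inside the gene in replicate 1 and in AT1G16810 in replicate 2. The peak in the neighbour was thus the higher of the 2 in MOR1 and GCT and the lower in EMB2016 and AT4G38760, in both lists. Some of these peaks were weak, and the ends of AT4G38760 were close in height. The −log10 q at the left end was 2.58 and 2.34 in MOR1, 3.14 and 1.84 in AT4G38760, and 2.59 and 5.20 in GCT.

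In 4 of the 5 genes with the most unequal ends, the lower peak was at the right end and lay between genes in at least one list. AT1G75800 had 5.47 and 3.99 at its left end, inside the gene, and 1.87 and 1.89 at its right end, between genes. PATL1 (PATELLIN 1), a lipid-binding protein of the cell plate, had 4.05 and 3.73 inside on the left and 1.79 and 1.80 between genes on the right. AT5G19090 had 4.60 and 4.04 on the left and 1.72 and 1.97 on the right, and OXS2, a tandem zinc finger protein, 3.93 and 3.34 on the left and 1.91 and 1.68 on the right. The right summits of AT5G19090 and OXS2 changed sides of the gene end between the lists. The left peak of AT5G19090, a gene of 2839 bp, was 2962 and 2062 bp wide, with gaps of 81 and 111 bp to the right peak. That of AT1G75800, a gene of 2271 bp, was 1930 and 1987 bp wide, with gaps of 287 and 103 bp. TIR1, the F-box receptor of auxin, kept both summits inside, with 1.74 and 1.60 at its left end, 4 and 34 bp from it, and 3.84 and 3.06 at its right end. The lower peak of these 5 genes had a −log10 q from 2.00 to 4.69.

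Lists of regulators were then read against the 6.73% of long genes with peaks at both ends. Each list is a chosen set of genes that need not cover its family or pathway. The 14 lists had 154 long genes, of which 19 (12.3%) had peaks at both ends; no test was made of this share. Auxin response factors had 3 of 9, clock genes 3 of 11, hormone receptors and early signalling genes 4 of 17, flowering genes 2 of 11, light receptors with the COP1/SPA group 2 of 14, and small RNA genes 2 of 15. None was found among 15 Polycomb and H3K27 demethylase genes, of which 10 were one-ended, nor among 10 cellulose synthase genes, 5 HD-ZIP III genes, 7 other remodeler ATPases and 5 SPL genes with long proteins. The SWI/SNF list had 1 of 20, AT3G52100, and 12 of its genes were one-ended. Over all long genes 41.5% were one-ended (5989 of 14444), and the one-ended counts of the lists were not tested against this share. Lists of 5 to 15 genes are too small for a count of none to be told from the 6.73% level.

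Among the 9 listed auxin response factors, ETT, ARF19 and ARF6 had peaks at both ends. ARF19, an activator of auxin responses, had 2.88 and 2.42 at its left end, where the summit was in AT1G19210, and 2.10 and 2.01 at its right end inside the gene, in replicates 1 and 2. ARF6, which acts in flower maturation, had 4.50 and 3.26 at its right end and 1.78 and 2.01 at its left end. Its left summit, 4 bp inside in replicate 1, was 302 bp outside and between genes in replicate 2. The ends of ARF6 were more unequal than those of ETT and ARF19 in both lists.

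Among the listed clock genes with peaks at both ends, GI (GIGANTEA) had the highest lower peak. It had 3.28 and 2.77 at its left end, at chr1:8061818-8062336 and chr1:8061824-8062357 (TAIR10), 254 and 208 bp inside. Its right peak had 3.07 and 2.61, with the summit in PFL, a ribosomal protein gene. PRR7, a repressor of morning clock genes, had 2.06 and 2.22 on the left, in CDL1, and 2.49 and 2.01 inside on the right. ZTL, an F-box protein that senses blue light, had 1.94 and 2.10 inside on the left and 2.22 and 2.45 on the right, in AT5G57370. For PRR7 the higher end changed between the lists, while for GI the left and for ZTL the right end was higher in both.

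The hormone list had 4 genes with peaks at both ends, EIN2, EIL1, BRI1 and TIR1, of which TIR1 is described above. EIN2, the central membrane protein of ethylene signalling, had 3.26 and 2.78 inside on the left and 2.38 and 1.94 outside on the right. EIL1, a transcription factor that acts after EIN2, had 3.31 and 3.05 inside on the left and 2.11 and 2.28 between genes on the right. ERS2, an ethylene receptor gene, is outside the list and was named after its values were seen. ERS2 had 2.43 and 2.45 outside on the left and 3.26 and 2.96 inside on the right. The inside peak was thus the higher in ERS2 as in EIN2 and EIL1, and left and right are coordinates only. BRI1, the brassinosteroid receptor, had chosen left peaks that did not overlap between the lists. Its left summit was 500 bp outside the gene with 1.61 in replicate 1 and 471 bp inside with 4.07 in replicate 2, so it met the rule at its limit.

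Genes for small RNAs, DNA demethylation, flowering and light followed. RDR6, which makes double-stranded RNA for trans-acting small RNAs, had 2.58 and 2.59 on the left and 2.43 and 2.72 on the right. Its left summit lay in AT3G49490 in both lists. Its right summit lay in AT3G49510 in replicate 1 and inside RDR6 in replicate 2. HYL1, the partner of DICER-LIKE 1 in making microRNAs, had 2.39 and 2.78 on the left, in AT1G09690, and 1.93 and 2.03 inside on the right. ROS1 (DML1), a DNA glycosylase that removes methylated cytosine, had 2.81 and 2.93 on the left, in AT2G36480, and 1.66 and 2.15 inside on the right. FLD, a histone demethylase homolog that promotes flowering, had 2.90 and 3.01 inside on the left and 2.05 and 1.99 on the right, in U11/U12-31K, a gene of the minor spliceosome. SEP3, a MADS-box gene of floral organ identity, had 2.10 and 1.86 on the left and 3.32 and 2.76 inside on the right. Its left summit was 490 bp inside in replicate 1 and 87 bp outside, between genes, in replicate 2. Its right peak was 3624 and 1219 bp wide in a gene of 2588 bp, and the gap was 60 and 1750 bp. PHOT2, a blue-light receptor, had 2.21 and 2.30 inside on the left and 1.74 and 2.44 between genes on the right. SPA2, a partner of COP1, had 2.08 and 2.31 inside on the left and 1.89 and 2.05 between genes on the right. AT3G52100 had both summits outside, in NRPB11 (an RNA polymerase II subunit) with 1.96 and 2.07 and in AT3G52105 with 3.19 and 2.70. Of the genes in this paragraph only RDR6 and PHOT2 changed their higher end between the lists.

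**Figure D5:**
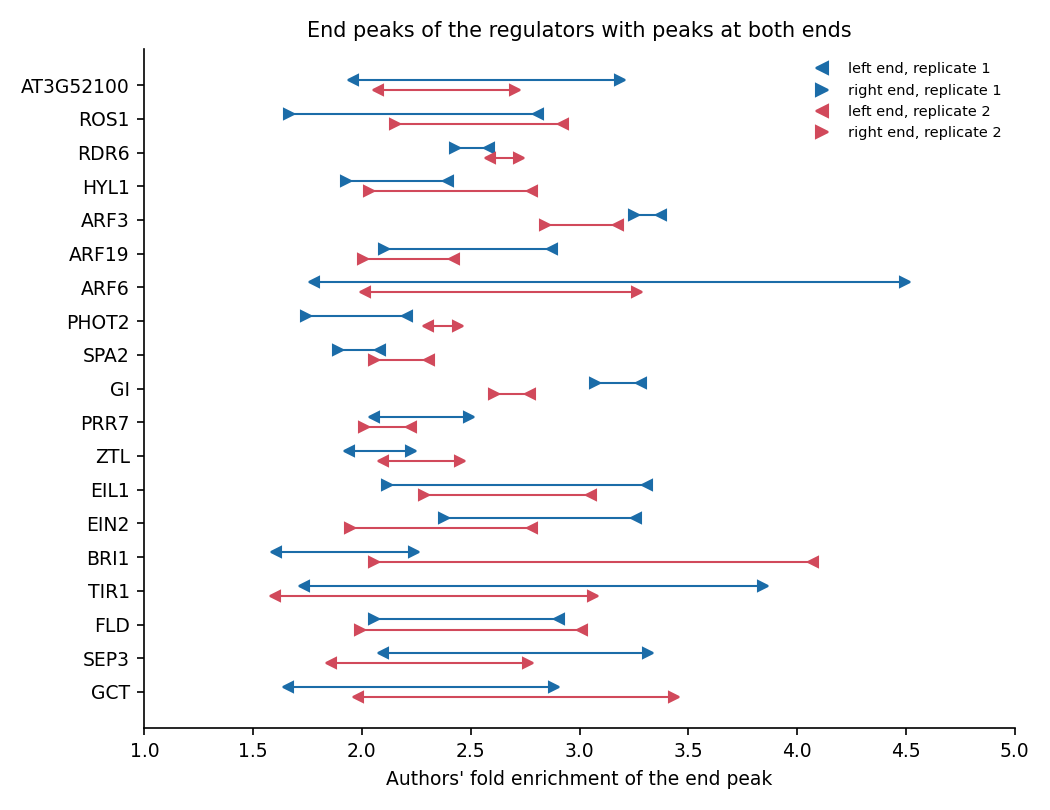
Authors' fold enrichment (x axis) of the left and right end peaks of the 19 listed regulators with peaks at both ends, joined per replicate (blue, replicate 1; red, replicate 2). ETT is drawn as ARF3 and DML1 as ROS1, and the distance between the triangles is widest for ARF6 in replicate 1 (1.78 and 4.50).

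Genes standing apart from their neighbours were few. Of the 87 genes with no protein-coding border within 500 bp of either end, 13 had both summits inside in both lists, and these are named because their number was small, after their values had been seen. They were MYB95, BOB1, XK-2, TIC, HB5, IAA7, CB5-B, AT1G27210, AT3G18950, AT5G02230, AT4G24060, AT2G41060 and AT3G10760. MYB95, a MYB transcription factor, had 3.86 and 3.48 at its left end and 2.59 and 2.10 at its right end, with summits from 86 to 184 bp inside. In replicate 1 its peaks were 1280 and 1855 bp wide in a gene of 2267 bp, with a gap of 65 bp between them. In replicate 2 they were 1029 and 504 bp wide, with a gap of 966 bp. TIC (TIME FOR COFFEE), a clock regulator, had 4.89 and 3.48 at its left end and 2.09 and 2.35 at its right end, over a gene of 6803 bp. Its left peak was 2915 and 3047 bp wide, and the gap was 3298 and 3310 bp. IAA7, an auxin response repressor, had 2.21 and 2.38 at its left end and 2.22 and 1.61 at its right end. BOB1, a NudC-domain protein, had 2.30 and 2.22 on the left and 2.72 and 2.47 on the right. HB5, a homeodomain-leucine zipper factor, had 2.39 and 1.89 on the left and 3.30 and 2.78 on the right. Its right peak was 1476 and 2288 bp wide in a gene of 2797 bp, and the gap was 927 and 152 bp. The left peak of AT5G02230 was 2176 and 608 bp wide, with gaps of 71 and 1774 bp. That of AT4G24060 was 1859 and 803 bp wide, with gaps of 126 and 208 bp. The higher end was the same in both lists in MYB95, TIC, BOB1 and HB5 and changed in IAA7.

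Annotated RNA genes that overlap the gene were also counted. Long non-coding RNA genes overlapped 32 of the 972 genes (3.29%, exact 95% interval 2.26% to 4.62%), against 6.48% of one-ended genes and 5.94% of all long genes. Genes typed as antisense RNA overlapped 0 of the 972 (exact 95% interval up to 0.379%), and 45 of the 14444 long genes (0.312%). The interval for antisense RNA genes includes the share of all long genes, so a difference was not detectable at this number of genes. That for long non-coding RNA genes lies below the share of all long genes. Both intervals take genes as independent although some shared a peak, and neither difference was tested. Another protein-coding gene overlapped 22.1% of the 972 genes and 27.4% of all long genes.

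Groups of genes defined by words in their names were near the 6.73% level where they were large. Genes with kinase in a name had 37 of 515 (7.18%), among them SERK1, PID, BIK1, BSK1 and TSL, and genes with transporter in a name had 15 of 234 (6.41%), among them KUP3 and PHT3;1. Kinesin and myosin genes had 0 of 44 and helicase genes 0 of 23, and genes named for ATPases had 2 of 62. Zinc finger genes had 4 of 25, which were ZFN2, ZFN3, OXS2 and VOZ2. These counts cover only genes with such a word in the table and were not tested.

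The rule sits on a slope of the distribution rather than at a break. Widening the window by steps of 50 bp brought in 169 genes between 451 and 500 bp and 147 between 501 and 550 bp. The largest of the 4 summit distances was 499 bp in AT5G66560 and 500 bp in BRI1, just inside, and 501 bp in AT1G51560 and in SWI3C, just outside. SWI3C encodes a core subunit of the SWI/SNF complex.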

How the data were processed

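For each BDH1-FLAG sample the authors deposited a narrowPeak list of its own, called separately. Per the submitters' processing notes, Bowtie2 2.5.2, SAMtools, bedtools 2.31.1, MACS2 2.2.9.1 and build TAIR10 were used; the control library and caller options are not given in the sources used here. The deposited columns hold positions, a linear ratio (fold enrichment), the −log10 p-value and −log10 q-value, and a score that was not used. The lowest deposited −log10 q was 1.32 in replicate 1 and 1.31 in replicate 2. Without read counts no counting error could be given for a peak, and exact (Clopper-Pearson) 95% intervals cover the counting of genes or gene ends only.

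The summit was column 2 plus column 10, as the rule says. That position counts from 0, so distances may be off by 1 bp, and counting from 1 gave 975 genes, adding SWI3C, AT1G51560 and AT2G01720. Printed peak coordinates count from 1. Of several peaks at an end, the pair with the highest summed fold enrichment was used. Gene ends and names came from the RefSeq table of TAIR10.1. Its match to the lists was checked: 41.2% and 42.3% of summits lay within 250 bp of a protein-coding gene end, against 21.9% to 23.5% after shifts of 2 to 10 kb. No strand or sequence was used, so starts were not separated from ends and no motif was searched.

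Named genes were the 10 with the highest-ranking lower peak, the 5 longest, the 5 with the most unequal ends among those with the same higher end in both lists, the listed regulators (at most 4 a list) and the genes nearest 500 bp. The genes, lists and comparisons were chosen with earlier results of these data known. Name patterns were narrowed after a first count had matched unrelated words. No p-value is given: the lists form one group of 2 replicates. The finder was tested on simulated peaks. Python 3.11.15, numpy 2.4.6, pandas 2.3.3 and scipy 1.17.1 were used. The alternatives were windows of 250 and 1000 bp, a −log10 q of at least 5 or 10, lengths of 3000 or 4000 bp, each list alone, and genes without close neighbours.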

Additional observations from a re-analysis of the deposited data

How the results depend on the processing

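The number of genes with peaks at both ends depended most on the settings of the rule, as each alternative changes which peaks or genes can qualify. It was 91 with a window of 250 bp and 1982 with 1000 bp, or 0.630% and 13.7% of the long genes. Peaks with a −log10 q of at least 5 left 348 genes (2.41%) and of at least 10 left 24 (0.166%). There were 470 genes of 3000 bp or more, 204 of 4000 bp or more (6.28%) and 87 without a protein-coding border near either end (2.03%). A single list gave from 1415 to 1488 genes, or from 9.80% to 10.3%. Chosen after seeing the data, the demand that both summits lie inside the gene in both lists gave 49 genes, overlapping peaks between the lists gave 908, and summits counted from 1 gave 975.

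The share of end summits inside the gene was 48.8%. It was 54.4% and 46.5% with windows of 250 and 1000 bp, 44.7% and 44.8% at the stricter thresholds (5 and 10), 49.0% and 49.5% in genes of 3000 and 4000 bp or more, and 62.4% without close neighbours. A single list gave from 50.1% to 50.3%. The median absolute distance of summits was 273 bp, and 172 and 344.5 bp with the other windows, 291 and 326.5 bp at the stricter thresholds, 269 and 265.5 bp in longer genes and 262 bp without close neighbours (from 275 to 276 bp in a single list). The median gap of 2479 bp became 2542 and 2675 bp with the other windows, 2547 and 2174 bp at the stricter thresholds, 3392 and 4498 bp in longer genes and 1802 bp without close neighbours (from 2460 to 2543 bp in a single list). The same end was higher in 74.5% of genes, in 68.4% and 62.5% at the stricter thresholds and in 80.5% without close neighbours. A border of any other gene lay near 71.9% of the ends, 66.0% with 1000 bp, 77.0% and 79.2% at the stricter thresholds, 17.8% where close protein-coding neighbours were left out by construction, and from 67.7% to 69.1% in a single list. The share with a peak at the second end given one at the first was 28.2%, 11.4% and 40.0% with the other windows, 17.8% and 5.82% at the stricter thresholds, 27.5% and 25.9% in longer genes and 17.2% without close neighbours (from 27.8% to 28.6% in a single list).

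The cause of the smaller shifts was not tested. A single list has no higher end to compare between lists, and the planned share of genes with a higher start peak was not run, as no strand was used. No paired analysis was possible because the replicates belong to one group. Depth is unknown, so whether a bare end lacks a peak for want of reads was not tested.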
